A study of Mus musculus with 6 samples.

Results

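Cardiac genes for sodium, chloride and bicarbonate transport other than the Na/K-ATPase were examined in whole hearts of 3-month-old male mice. The 7 genes were Scn4a, Scn4b, Slc12a2, Slc12a7, Slc4a3, Slc4a4 and Slc4a7, chosen by symbol as routes by which these ions cross the membrane apart from the pump, and all 7 were found among the 54532 genes counted. Hearts 368, 369 and 370 carried α1 r/rα2 s/s (called resistant) and hearts 379, 380 and 381 carried α1 s/sα2 s/s (called sensitive), all on a C57BL/6 background and with 1 library per heart. Both genotypes carried the sensitive α2, and they differed in the Na/K-ATPase α1, whose rodent form binds cardiotonic steroids weakly and whose knocked-in form binds them tightly. The knock-in was not restricted to the heart, and counts per gene do not show the substitutions, so each genotype was taken from its label. The comparison asked whether RNA levels of these transport genes differed between the genotypes. The total count per heart ran from 19309312 to 20470065.

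As background, the gradient of sodium across the membrane, which the pump maintains, drives many other transporters of the heart muscle cell. Voltage-gated sodium channels carry the upstroke of the action potential, while cotransporters of the SLC12 family move chloride with cations. Members of the SLC4 family move bicarbonate and thereby set intracellular pH together with the sodium-proton exchangers.

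The tissue was checked against marker genes. All 8 general and ventricular cardiomyocyte markers were detected, with a summed level of 51807, 48343 and 59206 CPM (counts scaled to the same library size with the TMM factors of edgeR) in resistant hearts and of 54360, 53036 and 57543 CPM in sensitive hearts. Myh6, the main myosin heavy chain of the adult mouse heart, was the most abundant of them per length. The ranges of the genotypes overlapped.

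Per length, the 7 genes spanned a wide range. In RPKM (the CPM divided by the gene length in kilobases, mean ± SD over all 6 hearts), Slc4a3 stood at 26.7 ± 2.72 and Slc12a7 at 14.6 ± 1.08. Scn4b at 7.71 ± 3.64, Slc12a2 at 7.13 ± 0.247 and Scn4a at 6.21 ± 1.39 RPKM did not differ beyond their spread. Slc4a4 at 3.67 ± 0.584 and Slc4a7 at 1.86 ± 0.19 RPKM were the lowest. The gene length given with the counts matched the exons of GENCODE M21 for 6 of the 7. For Slc12a2 it was 6520 bases against 10920, and with the longer value its level was 4.25 RPKM, between Scn4a and Slc4a4. No exon of the 7 genes overlapped an exon of another gene in that annotation.

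Between the genotypes, 0 of the 7 genes passed an adjusted p of 0.05 in the edgeR quasi-likelihood test (Benjamini-Hochberg adjusted), where 214 of 14866 tested genes (1.44%) did, 116 higher and 98 lower in sensitive hearts. At an unadjusted p under 0.05 there were 3 of the 7 (Scn4a, Slc4a3 and Slc4a4), against 14.5% of all genes tested. The same 3 had no overlap between the genotypes in CPM, against 20.0% of all genes tested. The 7 genes were chosen with earlier results of these data known, so these shares are no independent test of them. DESeq2 called 1 of the 7, Scn4a, where it called 409 of the 10520 genes to which it gave an adjusted p (3.89%). In the gene and marker lists below, tested means tested in edgeR. To some low genes among them DESeq2 gave no adjusted p, so its calls rest on fewer genes in those lists. Of the 7 genes, 2 had a higher and 5 a lower fitted level in sensitive hearts, with a median log2 fold change of -0.09. Over all genes tested the median was -0.0078, with 7202 higher and 7664 lower.

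**Figure D1:**
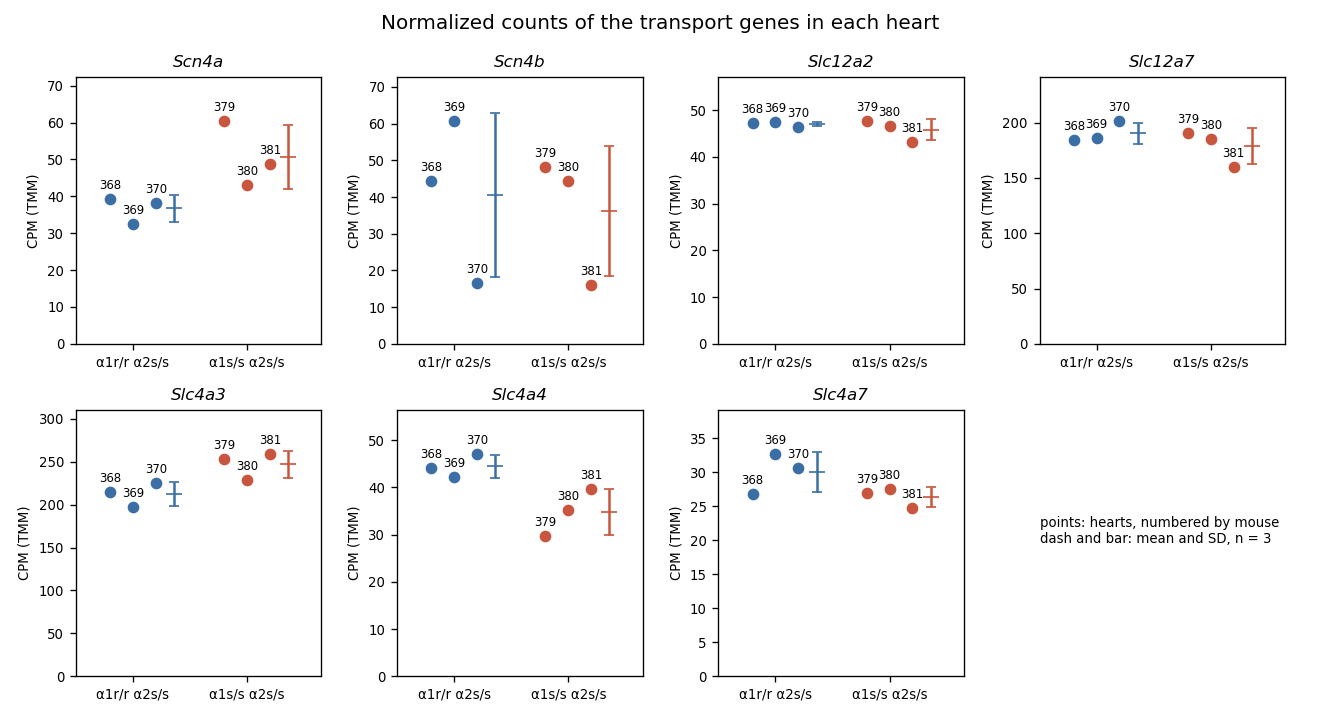
Normalized counts (CPM with TMM factors, axes from 0) of the 7 genes in each of 6 hearts. Points are hearts numbered by mouse, and the dash and bar give the mean and SD (n = 3). Scn4a and Slc4a3 lie higher and Slc4a4 lower in all 3 sensitive hearts, and Scn4b is lowest in hearts 370 and 381, one of each genotype.

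Scn4a (ENSMUSG00000001027) encodes the pore-forming sodium channel subunit best known from skeletal muscle. On GRCm38 it is annotated on chromosome 11 from 106318592 to 106353288, on the minus strand. Its level was 39.4, 32.4 and 38.3 CPM in resistant hearts 368, 369 and 370, and 60.3, 43.2 and 48.7 CPM in sensitive hearts 379, 380 and 381. The lowest sensitive heart was above the highest resistant heart, although the gap between hearts 380 and 368 was small beside the spread within each genotype. The means were 36.7 ± 3.77 and 50.7 ± 8.75 CPM (SD, n = 3). Its fitted log2 fold change came to 0.47 (standard error 0.11, 95% interval 0.22 to 0.71), with an adjusted p of 0.0589 in the edgeR quasi-likelihood test, higher in 3 of 3 sensitive hearts. It was past the threshold in DESeq2 (adjusted p = 0.00907), in edgeR without a filter on low counts (9.4e-05) and in edgeR without heart 380 (0.0361), within a range of 9.4e-05 to 0.197 over 14 other settings.

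Skeletal muscle markers were counted in the same hearts. Of 9 such genes Myh4 had 0 counts in all 6 hearts, 4 others, Myh1, Myh2, Actn3 and Myod1, were too low to be tested, and Mylpf, Tnnt3, Tnni2 and Atp2a1 were tested, with adjusted p of 0.508 to 0.837 in the edgeR quasi-likelihood test. The summed level of the 9 was 3.1, 3.11 and 2.71 CPM in resistant hearts and 3.87, 2.16 and 2.59 CPM in sensitive hearts, with Mylpf the most abundant per length at 0.796 RPKM. Heart 380, the lowest of the sensitive hearts in Scn4a, was also the lowest in this sum. Heart 369, the lowest of all hearts in Scn4a, was not low in this sum, at 3.11 CPM. The part of these markers in the Scn4a levels was not tested.

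Within the family of 10 alpha subunits, Scn4a made up 12.5%, 9.32% and 11.4% of the summed alpha subunit RPKM in resistant hearts and 18.6%, 14.1% and 17.3% in sensitive hearts. The lowest of these shares in sensitive hearts was above the highest in resistant hearts, on a scale where the shares of all subunits sum to a fixed whole. Of the 10 genes, 6 were tested, 0 were called in edgeR, 1 higher and 1 lower had an unadjusted p under 0.05, and DESeq2 called 1 higher and 1 lower, where the shares over all genes were 1.44%, 14.5% and 3.89%. Their median log2 fold change was 0.02.

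Scn4b (ENSMUSG00000046480) encodes a beta subunit that associates with the alpha subunits and modifies their gating. It lies on chromosome 9 from 45138395 to 45154152, on the plus strand. Its level was 44.5, 60.6 and 16.5 CPM in resistant hearts 368, 369 and 370, and 48.2, 44.5 and 16 CPM in sensitive hearts 379, 380 and 381. Hearts 370 and 381, one of each genotype, stood far below the other 4, and the genotypes overlapped throughout. The highest heart was 3.79-fold above the lowest, while for the other 6 genes this ratio was between 1.1 and 1.86. These levels rested on 329 and 309 counts in the low pair and on 846 to 1268 in the others, so that counting error was small beside the difference. On the log2 scale the fitted fold change was -0.16 with a wide 95% interval of -0.95 to 0.63 (adjusted p = 0.884 in the edgeR quasi-likelihood test, 0.955 in DESeq2). Its direction turned when heart 369 (0.25) or heart 381 (0.19) was left out.

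Hearts 370 and 381 were also the lowest 2 of the 6 in the summed markers of 5 other cell types, given here, and the highest 2 in those of cardiomyocytes. They were not the lowest 2 in the other 7 marker lists, and heart 370 was the highest in smooth muscle markers. The 5 erythroid markers, all detected and led by Hbb-bs, summed to 954, 1272 and 536 CPM in resistant hearts and to 796, 3187 and 401 CPM in sensitive hearts. The 5 macrophage markers, all detected and led by Lyz2, summed to 321, 413 and 256 CPM and to 287, 274 and 241 CPM. Endothelial markers, 5 genes, all detected and led by Cdh5, summed to 890, 941 and 802 CPM and to 847, 840 and 674 CPM. The 5 fibroblast markers, all detected and led by Dcn, came to 786, 810 and 723 CPM and to 795, 767 and 719 CPM, and the 4 pericyte markers, all detected and led by Rgs5, to 1318, 1300 and 1251 CPM and to 1276, 1285 and 1139 CPM. The part of these markers in the Scn4b levels was not tested. In such bulk samples, fewer cells of a type and less RNA per cell cannot be told apart. Of the tested genes within 200 kb of Scn4b, the neighbouring beta subunit gene Scn2b had 0.907, 0.955 and 0.854 CPM in resistant hearts and 0.695, 0.316 and 1.14 CPM in sensitive hearts, and was not low in the same pair. These levels rested on only 6 to 22 counts per heart, so the order of the hearts in Scn2b is uncertain.

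The genes whose profile lay closest to Scn4b over the 6 hearts, a search made after its values were seen, were H2-Q5, Gmfg and Tgtp2. The measure was the root mean square difference of log2 CPM, each gene centred on its own mean, and it came to 0.24, 0.27 and 0.29. H2-Q5, a class I histocompatibility gene, had 6.54, 7.36 and 2.96 CPM in resistant hearts and 6.45, 4.84 and 2.39 CPM in sensitive hearts. That it was lowest in hearts 370 and 381 follows from the way it was chosen. For Scn4a, which had the smallest p of the 7, the closest of 12107 genes were 9330158H04Rik, Ctla4 and 8430422M14Rik, with differences of 0.06, 0.065 and 0.079. Ctla4 was at 3.87, 3.06 and 3.77 CPM in resistant hearts and at 5.21, 4.05 and 4.56 CPM in sensitive hearts. The log2 fold changes of the 3 ran from 0.37 to 0.45, near that of Scn4a by the way they were chosen. None passed the edgeR quasi-likelihood test (adjusted p of 0.175 to 0.528).

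Among the 4 beta subunits, Scn4b made up 53.1%, 60.1% and 31.6% of the summed beta subunit RPKM in resistant hearts and 52.6%, 52.2% and 26.4% in sensitive hearts. The share was lowest in hearts 370 and 381, as was the level of Scn4b itself. All 4 were tested in edgeR, with 0 calls and 0 genes at an unadjusted p under 0.05. DESeq2 called 0, and it gave no adjusted p to Scn2b and Scn3b. The shares over all genes were 1.44%, 14.5% and 3.89%.

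Of 11 partners of the channel, such as fibroblast growth factor homologous factors and ankyrins, 10 were tested and 0 were called in edgeR or DESeq2. At an unadjusted p under 0.05, 1 was higher and 4 were lower in sensitive hearts, where 14.5% of all genes tested had such a p in either direction. The median log2 fold change was -0.15, against -0.0078 over all genes. Gpd1l, whose product influences the surface level of sodium channels, had 82.6, 78.1 and 85 CPM in resistant hearts and 70.6, 71.1 and 74.9 CPM in sensitive hearts. Its log2 fold change of -0.18 had an adjusted p of 0.245 in the edgeR quasi-likelihood test, with no overlap between the genotypes.

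Slc12a2 (ENSMUSG00000024597) encodes NKCC1, which brings chloride into cells with sodium and potassium. It lies on chromosome 18 from 57878678 to 57946821. Its level was 47.2, 47.5 and 46.5 CPM in resistant hearts and 47.6, 46.7 and 43.3 CPM in sensitive hearts. Apart from the slightly lower heart 381 the values were nearly level, and the genotypes overlapped. This gave a log2 fold change of -0.04 with a 95% interval of -0.2 to 0.13 (adjusted p = 0.873 in the edgeR quasi-likelihood test, 0.929 in DESeq2).

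Slc12a7 (ENSMUSG00000017756) encodes KCC4, which exports chloride with potassium, and lies on chromosome 13 from 73733094 to 73816754. Its level was 184, 186 and 201 CPM in resistant hearts and 191, 185 and 160 CPM in sensitive hearts. Heart 381 was the lowest and heart 370 the highest, and the other 4 hearts lay close together irrespective of genotype. In the fit the log2 fold change was -0.09 with a 95% interval of -0.26 to 0.08 (adjusted p = 0.639 in the edgeR quasi-likelihood test, 0.679 in DESeq2). With hearts 370 and 381 both left out it was 0.03.

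Slc12a7 was the most abundant per length of the 9 cation-chloride cotransporters, ahead of Slc12a4, the related KCC1, at 10.4 RPKM. Of the 9 genes, 8 were tested, with 0 calls in edgeR, 0 at an unadjusted p under 0.05 and 0 in DESeq2. Over all genes these shares were 1.44%, 14.5% and 3.89%. Slc12a3, Slc12a5 and Slc12a8 were given no adjusted p by DESeq2. The median log2 fold change of the list was -0.04. Slc12a4 had the smallest p, with 42.4, 41.4 and 44.3 CPM in resistant hearts and 47.1, 46.6 and 46.3 CPM in sensitive hearts. The genotypes did not overlap in Slc12a4, but its log2 fold change of 0.13 had an adjusted p of 0.462 in the edgeR quasi-likelihood test. Slc12a1, the cotransporter of the kidney, was too low to be tested.

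The WNK kinases act through the kinases SPAK and OSR1 on these cotransporters. Of 6 such genes, 5 were tested and 0 were called in edgeR or DESeq2, with 1 lower at an unadjusted p under 0.05, against 14.5% of all genes in either direction. Wnk1 was the most abundant per length at 30.5 RPKM, with 690, 721 and 742 CPM in resistant hearts and 691, 710 and 623 CPM in sensitive hearts. Wnk2 had 65.2, 63.2 and 66.2 CPM in resistant hearts and 59.9, 53.7 and 56.3 CPM in sensitive hearts, where all 3 values were lower. The log2 fold change of Wnk2 was -0.2 (adjusted p = 0.225 in the edgeR quasi-likelihood test).

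Slc4a3 (ENSMUSG00000006576) encodes AE3, an exchanger that takes chloride up for bicarbonate and so loads acid into the cell. It lies on chromosome 1 from 75546266 to 75562172, on the plus strand. Its level was 215, 197 and 225 CPM in resistant hearts 368, 369 and 370, and 253, 229 and 259 CPM in sensitive hearts 379, 380 and 381. All 3 sensitive hearts were above the resistant hearts, with hearts 380 and 370 close to each other. The means were 212 ± 14.1 and 247 ± 16.1 CPM (SD, n = 3). As a log2 fold change the difference was 0.22 (standard error 0.08, 95% interval 0.06 to 0.38), with an adjusted p of 0.183 in the edgeR quasi-likelihood test and of 0.0625 in DESeq2. It stayed above the threshold under all 14 other settings, from 0.0625 to 0.451.

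Tested neighbours of Slc4a3 within 200 kb include Des and Obsl1, genes of the muscle cytoskeleton singled out after their values were seen. Des was at 1290, 1210 and 1470 CPM in resistant hearts and at 1530, 1600 and 1770 CPM in sensitive hearts. Obsl1 was at 76.3, 74.6 and 89.7 CPM and at 100, 101 and 100 CPM. Both had all 3 sensitive hearts above the resistant hearts, with adjusted p of 0.1 for Des and 0.0542 for Obsl1 in the edgeR quasi-likelihood test. Speg, which lies between them, had an adjusted p of 0.839 in the same test. Inha and Tmem198 in the same window, singled out in the same way, were fitted lower in sensitive hearts. Their log2 fold changes were -0.54 and -1.33, with adjusted p of 0.326 and 0.351 in that test.

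Slc4a4 (ENSMUSG00000060961) encodes NBCe1, an electrogenic cotransporter that brings in sodium with bicarbonate and so removes acid. It lies on chromosome 5 from 88886818 to 89239653, on the plus strand. Its level was 44.1, 42.3 and 47.1 CPM in resistant hearts 368, 369 and 370, and 29.8, 35.2 and 39.6 CPM in sensitive hearts 379, 380 and 381. All 3 sensitive hearts were below the resistant hearts, and heart 381 came closest to them. The means were 44.5 ± 2.43 and 34.9 ± 4.9 CPM (SD, n = 3). The difference came to a log2 fold change of -0.35 (standard error 0.1, 95% interval -0.57 to -0.14), with an adjusted p of 0.108 in the edgeR quasi-likelihood test and of 0.061 in DESeq2. Without a filter on low counts edgeR gave 0.0184, within a range of 0.0184 to 0.279 over 14 other settings.

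Slc4a7 (ENSMUSG00000021733) encodes NBCn1, an electroneutral sodium-bicarbonate cotransporter, and lies on chromosome 14 from 14702279 to 14799940. Its level was 26.8, 32.7 and 30.6 CPM in resistant hearts and 27, 27.5 and 24.7 CPM in sensitive hearts. Hearts 369 and 370 were the highest, and heart 368 lay among the sensitive hearts, so that the genotypes overlapped. The log2 fold change was -0.19 with a 95% interval of -0.4 to 0.03 (adjusted p = 0.41 in the edgeR quasi-likelihood test, 0.504 in DESeq2).

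Among the 10 SLC4 genes, Slc4a3 had a higher and both Slc4a4 and Slc4a7 a lower fitted level in sensitive hearts, while Slc4a8, a sodium-driven bicarbonate transporter singled out after its values were seen, was fitted at 0.08 on the log2 scale with an edgeR adjusted p of 0.929. Slc4a3 made up 72.7%, 69.4% and 72.3% of the summed SLC4 RPKM in resistant hearts and 77.1%, 74.4% and 76.6% in sensitive hearts. Slc4a4 made up 11.9%, 11.9% and 12.1%, and 7.21%, 9.11% and 9.3%. The share of Slc4a4 was nearly the same in all 3 resistant hearts and lower in each sensitive heart, on a scale where a higher share of Slc4a3 lowers the others. Of the 10 genes 6 were tested and 0 were called in edgeR or DESeq2, with 1 higher (Slc4a3) and 1 lower (Slc4a4) at an unadjusted p under 0.05, against 14.5% of all genes, and a median log2 fold change of 0.1. Slc4a1 and Slc4a8 were given no adjusted p by DESeq2. Slc4a5 had 0 counts in all 6 hearts.

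Promoter windows of 300 bases around transcript starts of RefSeq on GRCm38.p6 were found for 6 of the 7 genes, and none for Slc12a2. The windows of Slc4a3 and Scn4b contain the start of the gene as annotated with the counts, and those of Scn4a, Slc12a7, Slc4a4 and Slc4a7 lie inside the gene and not at that start. Slc12a7 had a pair of overlapping windows, at chr13:73763410-73763709 and at chr13:73763447-73763746. Slc4a4 had a pair of windows far apart, at chr5:88887010-88887309 and at chr5:89027716-89028015, and the counts per gene do not separate transcripts from the upstream or the downstream window of Slc4a4. The upstream window was 80% G and C and the downstream one 48.3%, against a median of 52.7% over 32851 windows. The window of Scn4a, at chr11:106349341-106349640, was 63% G and C, that of Scn4b 66.3% and that of Slc4a3 71.7%. On either strand, GGGCGG was found in the windows of Slc4a3 and Slc12a7 and in the upstream window of Slc4a4, and in 35.7% of all windows. TATAAA was found in that of Slc4a7, and in 13.6% of all windows. Such a match describes the letters of a window and not a binding site.

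Across all 11 lists of related genes, 113 genes with these 7 included, 90 were tested and the edgeR quasi-likelihood test called 2, both higher in sensitive hearts, where it called 1.44% of all genes tested. At an unadjusted p under 0.05, 8 were higher and 14 lower, against 14.5% of all genes in either direction. The median log2 fold change of the 90 was -0.05. DESeq2 called 3 higher and 1 lower, against 3.89% of all genes to which it gave an adjusted p. The pair called by edgeR, Slc6a6 and Slc38a2, belongs to the list of other sodium entry routes, in which 11 of 15 genes were tested, with 3 higher and 1 lower at an unadjusted p under 0.05 (14.5% of all genes), 2 higher called in DESeq2 and a median log2 fold change of 0.09.

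Slc6a6 encodes the taurine transporter, which takes up taurine with sodium and chloride, and lies on chromosome 6 from 91684053 to 91759066. Its level was 125, 110 and 97.2 CPM in resistant hearts and 152, 147 and 142 CPM in sensitive hearts. The genotypes were well separated, and the sensitive hearts lay close together. Its fitted log2 fold change came to 0.41 (standard error 0.08, adjusted p = 0.0281 in the edgeR quasi-likelihood test), higher in 3 of 3 sensitive hearts. The call was lost without heart 369 (0.0725), 370 (0.069), 379 (0.0924) or 380 (0.0772), or without hearts 370 and 381 together (0.0726), with log2 fold changes of 0.33 to 0.42 in these fits of fewer hearts, and kept without heart 368 (0.0152) or 381 (0.0458).

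Slc38a2 encodes SNAT2, a sodium-coupled transporter of neutral amino acids such as glutamine, and lies on chromosome 15 from 96687392 to 96699730. Its level was 183, 177 and 219 CPM in resistant hearts and 268, 257 and 238 CPM in sensitive hearts. All 3 sensitive hearts were above the highest resistant heart, 370. On the log2 scale the fitted fold change was 0.4 (standard error 0.09, adjusted p = 0.0318 in the edgeR quasi-likelihood test), higher in 3 of 3 sensitive hearts. It was lost without heart 368 (0.154), 369 (0.103), 379 (0.108) or 380 (0.0915), with log2 fold changes of 0.34 to 0.4 in these fits of fewer hearts, and kept without heart 370 (0.00804), heart 381 (0.0387) or both (0.00373). Slc38a1, a related transporter singled out after its values were seen, had 15.6, 14.9 and 16.6 CPM in resistant hearts and 17.1, 20.8 and 21.8 CPM in sensitive hearts, with an adjusted p of 0.171 in the same test. Slc5a6, singled out in the same way, was lower in all 3 sensitive hearts, with 10.3, 12 and 12.4 CPM against 8.54, 8.05 and 9.7 CPM and an adjusted p of 0.188. Slc6a8, the creatine transporter, was the most abundant of the list per length at 37 RPKM, with a log2 fold change of 0.07.

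**Figure D2:**
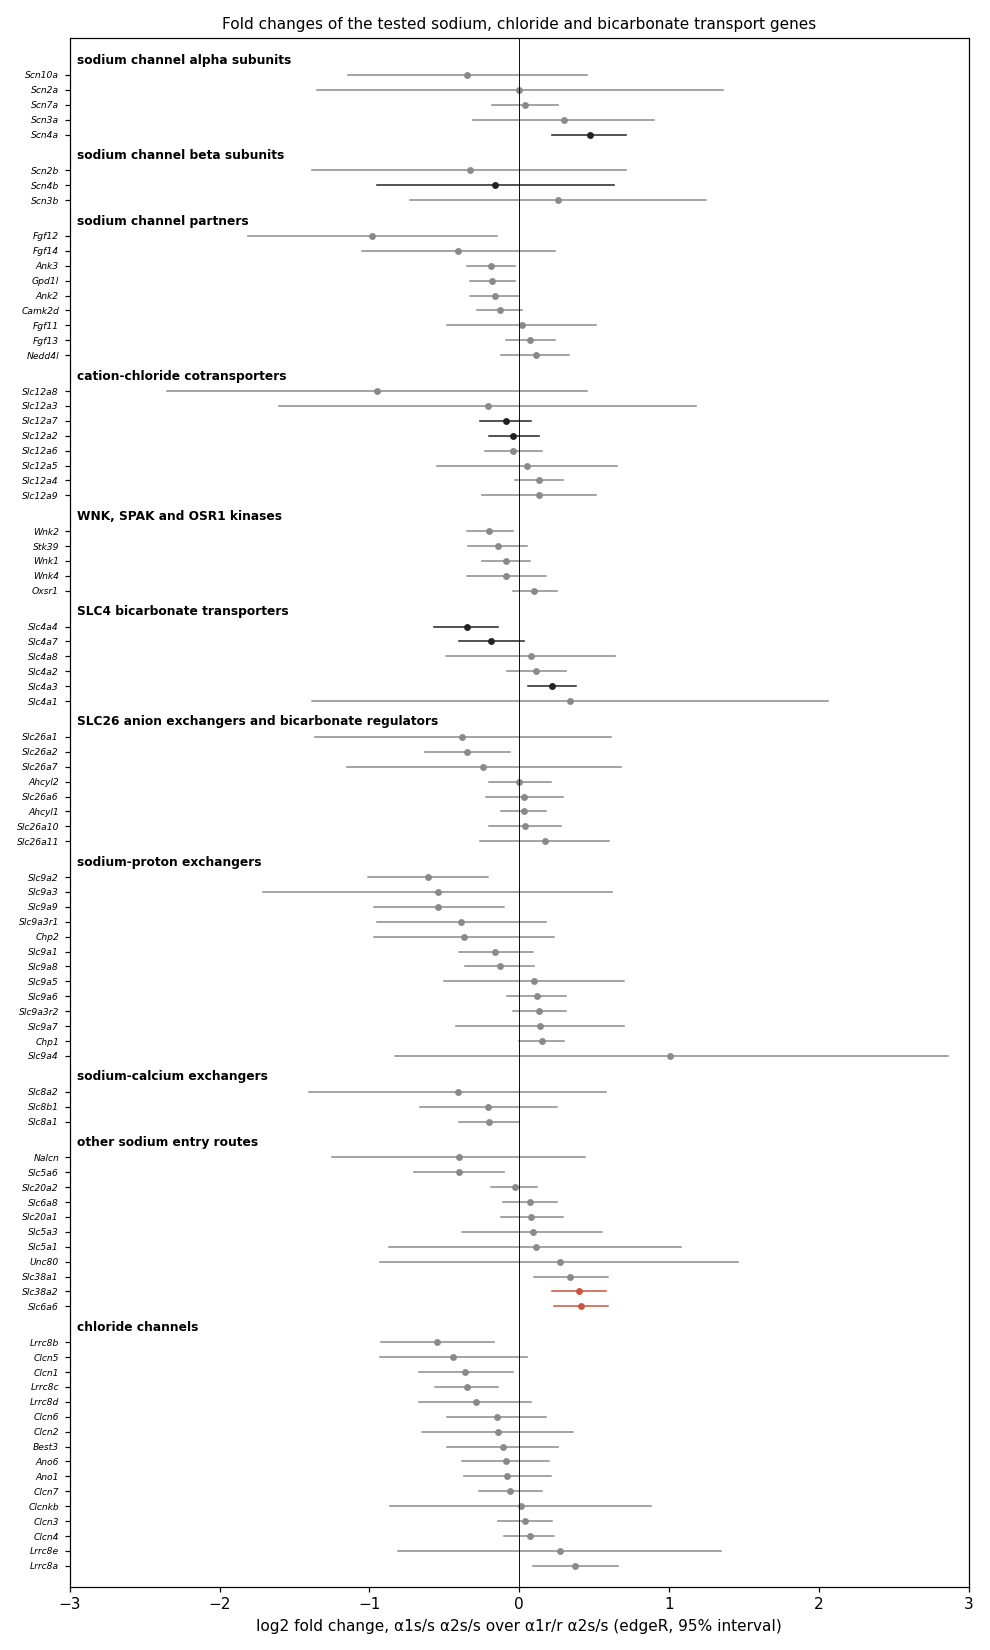
Log2 fold change of sensitive over resistant hearts (horizontal axis, edgeR) for 87 of the 90 tested genes of 11 lists, each with its 95% interval. The 7 genes described one by one are black, the 2 with an adjusted p under 0.05 (Slc6a6 and Slc38a2) red and all others grey.

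Sodium-proton exchangers, which remove acid in return for sodium, and their binding proteins were all 13 tested. In edgeR and in DESeq2 0 were called, and at an unadjusted p under 0.05, 1 was higher and 2 were lower, against 14.5% of all genes tested in either direction. Slc9a3, Slc9a4, Slc9a5, Slc9a7 and Chp2 were given no adjusted p by DESeq2. Slc9a2 had the smallest p, with 6.78, 9.55 and 7.94 CPM in resistant hearts and 5.56, 5.94 and 4.41 CPM in sensitive hearts, all 3 of them lower. This gave a log2 fold change of -0.61 with a standard error of 0.19 (adjusted p = 0.135 in the edgeR quasi-likelihood test). The adaptor gene Slc9a3r2 was the most abundant of this list per length at 39.2 RPKM, or 33.5 RPKM with the exonic length of GENCODE M21, and had a log2 fold change of 0.13.

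Among 4 sodium-calcium exchanger genes, Slc8a1, the exchanger of the cardiac sarcolemma, was the most abundant per length. Its length in the count table was 2934 bases against 18807 bases of exons in GENCODE M21, which gave 61 and 9.52 RPKM, so that its place relative to genes of other lists depends on that length. Its level was 195, 160 and 219 CPM in resistant hearts and 169, 162 and 170 CPM in sensitive hearts. The resistant hearts were widely spread around the sensitive hearts. In the fit the log2 fold change was -0.2 (adjusted p = 0.349 in the edgeR quasi-likelihood test). All 3 tested genes of the list had a fitted level lower in sensitive hearts, as did 7664 of all 14866 genes tested. There were 0 calls in edgeR, 0 at an unadjusted p under 0.05 and 0 in DESeq2, against 1.44%, 14.5% and 3.89% over all genes.

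Of 12 SLC26 anion exchangers and regulators of bicarbonate transport, 8 were tested and 0 were called in edgeR or DESeq2. Slc26a2, a sulfate transporter, was the single gene with an unadjusted p under 0.05, against 14.5% of all genes tested. It had 18.5, 18 and 14.2 CPM in resistant hearts and 14.2, 14.1 and 11.5 CPM in sensitive hearts. Heart 370 lay level with the higher sensitive hearts. As a log2 fold change the difference was -0.35 (adjusted p = 0.236 in the edgeR quasi-likelihood test). Ahcyl1, whose product IRBIT binds and activates NBCe1, was the most abundant of the list per length at 15.8 RPKM, with 112, 98 and 104 CPM in resistant hearts and 103, 108 and 109 CPM in sensitive hearts.

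Of 19 chloride channel genes 16 were tested and 0 were called in edgeR or DESeq2, with 1 higher and 3 lower at an unadjusted p under 0.05 (14.5% of all genes tested in either direction) and a median log2 fold change of -0.1. Lrrc8c, a subunit of the volume-regulated anion channel, had 39.2, 37.9 and 33.2 CPM in resistant hearts and 28.4, 31.4 and 26.8 CPM in sensitive hearts. All 3 sensitive hearts were lower. The difference came to a log2 fold change of -0.35 (standard error 0.1), with an adjusted p of 0.0958 in the edgeR quasi-likelihood test, of 0.0599 in DESeq2 and of 0.0321 in edgeR without a filter on low counts. The other subunits of the same channel were singled out after their values were seen. Lrrc8b had 10.7, 15.4 and 10.8 CPM in resistant hearts and 9.28, 9.26 and 6.69 CPM in sensitive hearts, all 3 of them lower, with a log2 fold change of -0.55 (adjusted p = 0.153 in the edgeR quasi-likelihood test), and it too was called without a filter. Lrrc8a, the obligatory subunit, had 9.17, 8.93 and 9.14 CPM in resistant hearts and 10.4, 12.1 and 12.8 CPM in sensitive hearts, with a log2 fold change of 0.37 (adjusted p = 0.201 in the same test). Lrrc8d and Lrrc8e had log2 fold changes of -0.29 and 0.27, and the genotypes overlapped in both. Clcn4 was the most abundant of the list per length at 10.2 RPKM, with a log2 fold change of 0.07.

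Other cell types were followed by their marker lists. The 4 atrial markers, all detected and led per length by Nppa, summed to 191, 246 and 157 CPM in resistant hearts and to 166, 139 and 158 CPM in sensitive hearts. Heart 369, the lowest in Scn4a and the highest in Scn4b, was the highest in this sum. Among the sensitive hearts the order for Scn4a was the other way, with heart 379 the highest and heart 380 the lowest in both. In Scn4b heart 379 was again the highest of the sensitive hearts. Heart 380, with the lowest atrial sum, had 44.5 CPM of Scn4b, against 16 CPM in heart 381, whose sum was higher. The part of the atrial share in these levels was not tested. Mitochondrially encoded genes took 23.9%, 23.4% and 24.4% of the counts in resistant hearts and 25%, 25.3% and 26% in sensitive hearts, without overlap. With these genes and the globin genes left out of the fit, edgeR called 213 genes in place of 214, and the adjusted p was 0.0541 for Scn4a, 0.105 for Slc4a4, 0.0249 for Slc6a6 and 0.0282 for Slc38a2.

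Gene by gene, edgeR called 0 of the tested genes of the 13 marker lists. DESeq2 called 4, all lower in sensitive hearts, namely Myl7 (atrial, adjusted p = 0.0177, 0.0799 in edgeR), Col1a1 (fibroblast, 0.0115 and 0.0743), Acta2 (smooth muscle, 0.0325 and 0.118) and C1qa (macrophage, 0.0379 and 0.118). At an unadjusted p under 0.05 in edgeR, 2 of 4 atrial, 2 of 5 endothelial, 2 of 5 fibroblast, 2 of 4 smooth muscle, 2 of 4 pericyte and 1 of 5 macrophage markers tested were lower, and 1 of 5 conduction system and 1 of 3 adipocyte markers higher. None of the tested markers of the other 5 lists had such a p, namely 8 cardiomyocyte, 4 skeletal muscle, 3 lymphocyte, 3 Schwann cell and 5 erythroid genes. Over all genes tested the share was 14.5% in either direction, and DESeq2 called 3.89% of those to which it gave an adjusted p. Fitted levels were lower in sensitive hearts for all 4 atrial, all 4 smooth muscle, all 4 pericyte (Rgs5 at 0 after rounding) and all 5 macrophage markers and for the 3 lymphocyte markers tested, and higher for the 3 Schwann cell and 3 adipocyte markers tested. They were also higher for all 5 erythroid markers, although heart 380 was the one sensitive heart whose erythroid sum, 3187 CPM, was above the resistant mean of 921 CPM. On the sums of the 13 lists and the mitochondrial share, the exact two-sided permutation test gave p from 0.1, the smallest that 3 hearts against 3 allow and so above 0.05 in any case, to 0.9, and Benjamini-Hochberg adjusted values from 0.525 to 0.9 over 14 tests. The smallest p was reached by the mitochondrial share and by the 4 adipocyte markers, led by Adipoq with Ucp1 at 0 counts, whose sum was 1.72, 1.62 and 0.754 CPM in resistant hearts and 3.77, 1.84 and 1.87 CPM in sensitive hearts.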

How the data were processed

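RNA from 6 hearts, 3 of each genotype, was sequenced by a company, with 1 library per heart. The authors deposited raw read counts per gene. Per the labels the tools were fastp, STAR and featureCounts with the build mm10, and versions and use of strand were not given in the sources used here. The authors also deposited their own DESeq2 comparison (mean, fold change, p-value), which was not used. Every row had a gene identifier. The total count per heart was 19309312 to 20470065. Within each genotype, every pair of hearts had a chi-square per gene of 6.86 to 13.2, well above counting error, so that no library was taken for a copy of another.

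Counts were analysed in R 4.3.3 with edgeR 4.0.16 (TMM, filterByExpr with minimum count 10 and minimum total 15, quasi-likelihood test), adjusted after Benjamini and Hochberg over 14866 genes, and called at 0.05. The standard error was the log2 fold change divided by the root of F. CPM and RPKM were computed from the counts with TMM factors and the gene lengths deposited with them, and log2 CPM with a prior count of 2. Marker sums were compared by an exact permutation test (scipy 1.17.1). The methods were tested on simulated data with planted changes larger than those fitted for the 7 genes, so the test does not cover changes of that size. Alternatives were DESeq2 1.42.0 (alpha 0.05), the RLE or the upper-quartile factors of edgeR, its robust prior, a filter of 1 count in all or of 10 counts per heart, removal of globin genes and genes of the mitochondrial genome, and each heart left out. Leaving out hearts 370 and 381 together and using exonic lengths of GENCODE M21 were chosen after seeing the data. The 7 genes and all lists were chosen with earlier results of these data known.

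Genes named were the 7, in each list those with an adjusted p under 0.05, the most abundant per length and, where none passed, the one with the smallest p, and the 3 genes of mean log2 CPM of at least 1 closest in profile to the member with the smallest p. Some genes that this rule takes are not reported here. Others are said to be singled out after their values were seen, and some, such as Scn2b, Speg, Slc12a1 and Slc4a5, were named outside this rule. The marker lists were cardiomyocyte, atrial, conduction system, skeletal muscle, endothelial, fibroblast, smooth muscle, pericyte, macrophage, lymphocyte, Schwann cell, adipocyte and erythroid. Counting error alone was small for the 7 genes, which had 309 to 5105 counts per heart.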

Additional observations from a re-analysis of the deposited data

How the results depend on the processing

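No paired analysis was made because the sources used here do not pair hearts across the genotypes. Of the alternative values computed, 384 kept their direction and their side of the threshold, or stayed within the spread or 1.5 times the count. Another 20 counts or levels moved by more, 5 fold changes turned direction, 9 adjusted p-values came under the threshold and 9 rose above it. The number of genes called (214) was 409 in DESeq2, 618 without a filter, 123 without hearts 370 and 381, and 80 to 158 with each heart left out. The number of the 7 genes called (0) was 1 in DESeq2 and 2 without a filter (Scn4a and Slc4a4), and 0 to 1 with each heart left out. The genes called in the 11 lists (2) were 4 in DESeq2, 7 without a filter, 1 without hearts 370 and 381, and 0 to 2 with each heart left out. Scn4a passed in DESeq2 (adjusted p = 0.00907) and edgeR without a filter (9.4e-05), and ran from 0.0361 to 0.197 with each heart left out. Slc4a4 passed in edgeR without a filter (0.0184). The direction of Scn4b turned without heart 369 (adjusted p = 0.862 in edgeR) or 381 (0.869), over leave-one-out values of 0.425 to 0.964. That of Slc12a2 turned without heart 381 (0.992, against 0.873 with all hearts and 0.799 to 0.992 with each left out), that of Slc12a7 without hearts 370 and 381 (0.924) and that of Ahcyl1 without heart 369 (0.98, against 0.882 with all hearts and from 0.763 with each left out). The fits without a heart had fewer samples. The cause of the other differences was not tested. Upper-quartile factors moved the median log2 fold change of all genes to -0.021 and gave 108 higher and 123 lower calls. With 3 hearts per genotype, the 95% interval of Slc12a2, for example, still ran from -0.2 to 0.13 on the log2 scale.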

Other observations

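The 6 conduction system markers summed to 52.8, 46.5 and 48.2 CPM in resistant hearts and to 52.3, 56.8 and 50.8 CPM in sensitive hearts, and the 4 smooth muscle markers to 143, 104 and 145 CPM and to 110, 112 and 99.6 CPM. Lymphocyte markers, 5 genes, summed to 4.77, 5.49 and 3.82 CPM and to 1.99, 7.15 and 2.39 CPM, and Schwann cell markers, 4 genes, to 10.7, 9.27 and 8.24 CPM and to 11.2, 10.7 and 9.7 CPM. The genotypes overlapped in each of these 4 lists.

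Tmprss13, a transmembrane protease gene within 200 kb of Scn4b that was singled out after its values were seen, had 7.16, 9.03 and 17.7 CPM in resistant hearts and 3.62, 4.05 and 6.38 CPM in sensitive hearts. Heart 370, which was low in Scn4b, was the highest of the 6 in Tmprss13, and heart 381 was the highest of the sensitive hearts. Its log2 fold change was -1.27 (adjusted p = 0.0473 in the edgeR quasi-likelihood test).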
